A study of Mus musculus with 2 samples.

Results

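The clustered replication-dependent histone genes are the 67 genes of mouse GENCODE M21 that are annotated as protein-coding and carry a cluster name, Hist1 to Hist4, followed by the letter h and the family of the histone they encode. They are 67 of 22028 protein-coding genes and of 55536 annotated genes in the tables. By family they comprise 6 genes of the linker histone H1, 18 of H2A, 18 of H2B, 12 of H3 and 13 of H4. Their RNA was measured by total RNA-seq, after depletion of ribosomal RNA, in the nucleoplasmic fraction of macrophages grown from bone marrow of C57BL/6J mice. Both libraries had been treated with Lipid A, the part of lipopolysaccharide that activates TLR4, at 100 ng/ml for 40 min. They are biological replicates 1 and 2 of 1 group, share 1 donor identifier, and were made from 1 µg (replicate 1) and 500 ng (replicate 2) of RNA, so a difference between them cannot be told apart from one of RNA input. Age and sex were not recorded in the labels, and no untreated cells or other fractions were analysed here. With 1 group and n = 2, the values below are levels with their spread, and no statistical test of a condition was possible.

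Core histones H2A, H2B, H3 and H4 form the protein spool of the nucleosome, and H1 binds the DNA between nucleosomes. The clustered genes supply histones for newly copied DNA, and their mRNAs are known to accumulate in S phase and to be degraded when DNA synthesis ends. Most of these mRNAs have no poly(A) tail: they end just after a short stem-loop that is bound by the stem-loop binding protein Slbp, and the cut is directed by the U7 small nuclear ribonucleoprotein. Some of the genes are also known to be read past the stem-loop into longer, polyadenylated forms in cells that have stopped dividing. Libraries that do not select poly(A) can hold both kinds of RNA.

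The stem-loop is the sequence that these genes have in common and that the naming rule did not use. It was searched for as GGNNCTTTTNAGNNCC on the sense strand of the GENCODE M21 transcript models, where N is any base. It was present in 44 of 67 genes (65.7%), against 34 of 21884 other protein-coding genes (0.155%). On the opposite strand it was found in 0 of the 67 genes and in 22 of the others. A model that ended within 40 bases of the motif was annotated for 16 of the 67 genes and for 0 of the others. Only annotated models were searched. Models of the 67 genes that lacked the motif ran from 312 to 2620 bases, with a median of 411. Some may stop before the stem-loop, so its absence from a model does not show that the gene lacks it. Sites follow for 8 genes that between them represent each family and each sequence variant, on mm10, read 5′ to 3′ in the sense of the gene, with the stem-loop in capitals.
Hist1h4m, chr13:21812124-21812147, plus strand: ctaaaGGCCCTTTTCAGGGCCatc
Hist1h4i, chr13:22040961-22040986, minus strand: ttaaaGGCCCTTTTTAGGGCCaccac
Hist1h4b, chr13:23757361-23757386, plus strand: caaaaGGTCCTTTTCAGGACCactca
Hist1h1c, chr13:23739507-23739532, plus strand: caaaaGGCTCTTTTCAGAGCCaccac
Hist3h2a, chr11:58955167-58955192, plus strand: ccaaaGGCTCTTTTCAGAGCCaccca
Hist2h2ac, chr3:96220413-96220438, minus strand: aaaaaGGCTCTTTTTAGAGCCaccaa
Hist1h2bg, chr13:23571838-23571863, plus strand: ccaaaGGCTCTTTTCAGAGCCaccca
Hist1h3e, chr13:23561898-23561923, minus strand: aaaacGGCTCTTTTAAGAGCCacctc
The variants sorted by family. All 11 H4 genes with a stem-loop carried 1 of 3 forms that no other family had: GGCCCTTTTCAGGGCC in 7 genes, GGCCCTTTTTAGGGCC in 2 and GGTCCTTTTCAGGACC in 2. The 33 genes of the other families with a stem-loop carried 1 of 3 further forms. Of these, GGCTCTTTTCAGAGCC was in 26 genes, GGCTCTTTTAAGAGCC in 6 (1 H1, 2 H2B and 3 H3 genes) and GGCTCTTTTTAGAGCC in Hist2h2ac alone. The H4 forms thus differed from the rest in the bases that pair in the inner part of the stem.

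Together the 67 genes held a small part of the nucleoplasmic RNA, although their median level was above that of all protein-coding genes. TPM is the authors' alignment-based level, scaled for the length of a transcript and to the same total in each library. Summed over all 67 genes it was 103.56 in replicate 1 and 68.55 in replicate 2, a mean of 86.1 ± 24.8 (SD, n = 2). They held 1366.67 and 1201.78 of 19498126 and 18398454 expected counts on annotated genes, or 0.00701% and 0.00653%. With detection set at 1 TPM or more in both replicates, 18 of the 67 genes were detected (26.9%), beside 40.0% of all protein-coding genes. A further 15 reached 1 TPM in 1 replicate only, and 34 in neither. The median of the 67 was 0.76 and 0.44 TPM, against 0.38 and 0.25 for all protein-coding genes. The 18 detected ones had a median of 3.49 and 2.25 TPM, against 8.64 and 6.12 for all detected protein-coding genes. Within a library the shares were closer: 41.8% of the 67 genes reached 1 TPM in replicate 1, beside 43.6% of protein-coding genes, and 34.3% in replicate 2, beside 40.4%. The wider gap thus appears when both libraries are required. Only Hist1h4m and Hist1h1c reached 5 TPM in both libraries. The 10 highest held 52.4 ± 0.353% of the summed TPM.

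The threshold and the scaling matter for that count. At 0.1 TPM 48 genes (71.6%) passed in both libraries, beside 53.7% of protein-coding genes, and at 5 TPM 2 (2.99%) did, beside 22.3%. Protein-coding genes that are not mitochondrial summed to 254567 TPM in replicate 1 and 177947 in replicate 2, with the rest on other features. With TPM rescaled so that those genes alone make up the total, 40 histone genes (59.7%) passed 1 TPM, beside 50.3%. By the authors' second quantification, made from the FASTQ files, 11 (16.4%) did, beside 41.6% of 21951 protein-coding genes. Without replicate 2, 28 passed. The histone share was thus above that of all protein-coding genes at the lower threshold and after rescaling, and below it under the other rules given here.

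**Figure D1:**
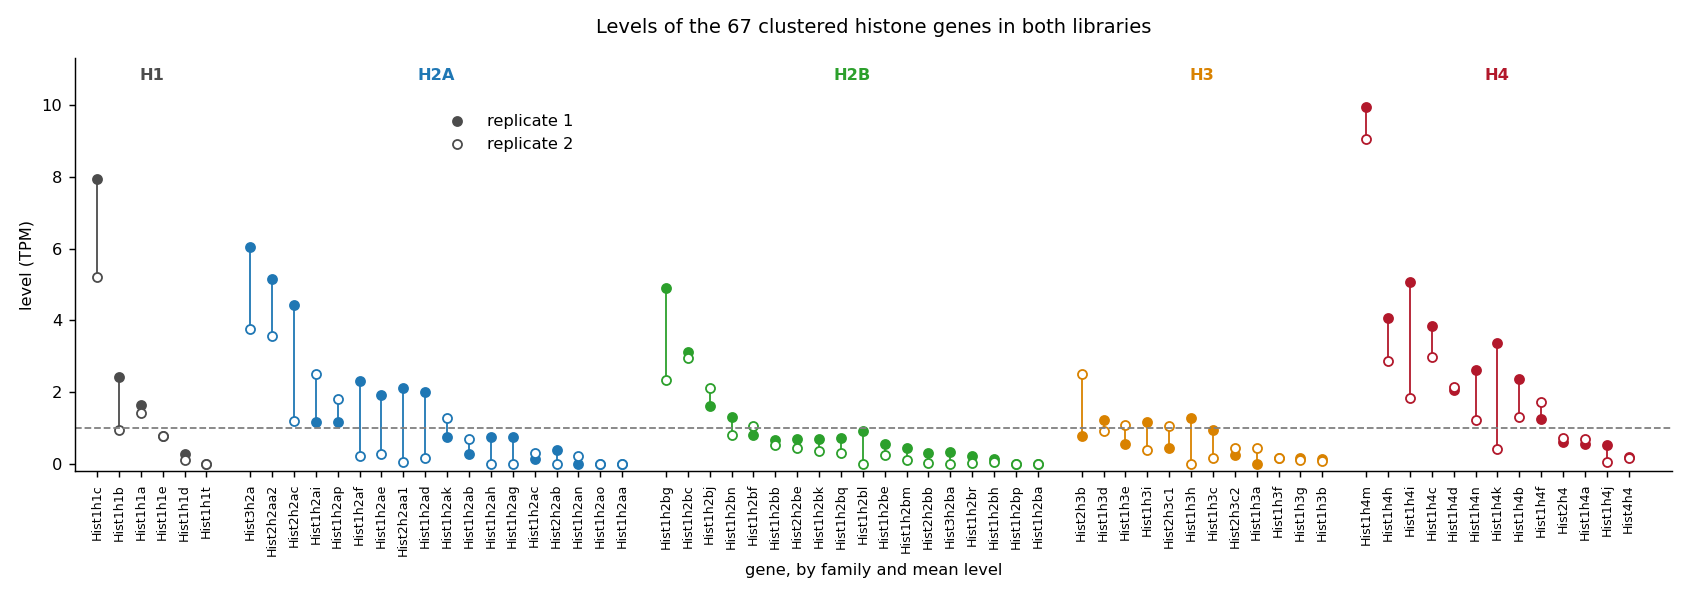
Level in TPM (y axis, linear) of each of the 67 genes, ordered by mean within its family, in replicate 1 (filled points) and replicate 2 (open points), joined by a line; the dashed line is 1 TPM. Hist1h4m stands apart at 9.96 and 9.06 TPM, H4 genes make up the largest number above the line in both libraries, and no H3 gene is above it in both.

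H1 genes were led by a single member. Hist1h1c, which encodes the linker histone H1.2, had 7.93 TPM in replicate 1 and 5.20 in replicate 2, from 231 and 198 expected counts. Hist1h1b had 2.42 and 0.95 TPM and Hist1h1a 1.65 and 1.43, from 28 and 14 and from 19 and 21 counts. Hist1h1e had 0.78 TPM in each library. Hist1h1c was above the other 5 H1 genes in both libraries, and its lowest value exceeded the highest of theirs. Hist1h1d had 0.205 TPM on average, over a model of 7425 bases. Hist1h1t, the H1 gene of the testis, had 0 counts. H1 as a family held 12.5 ± 0.177% of the summed TPM of the 67 genes.

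H2A genes gave 25.9 ± 3.50% of the summed TPM, with 5 of 18 detected. Hist3h2a led at 6.04 and 3.75 TPM, from 252 and 206 counts, the most counts of any of the 67. Hist2h2aa2 had 5.16 and 3.57 TPM. Hist2h2ac had 4.44 and 1.20 TPM and Hist1h2ai 1.16 and 2.51. Hist1h2ap, also detected, had 1.16 and 1.80 TPM. The first 3 were higher in replicate 1 and the last 2 in replicate 2. Of these, Hist3h2a (chr11:58954685-58956830, plus strand, a 2146-base model) shares an exon on its own strand with Trim17, a ubiquitin ligase gene that had 74 and 63 counts. Hist2h2aa2 has a copy, Hist2h2aa1, that contains every 50-base window of it, and the copy was listed at 2.12 and 0.06 TPM. How reads were divided between the copies cannot be seen in these tables. The 9 H2A genes not named by the rule of selection ranged from 0 to 1.08 TPM on average, and none was detected.

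H2B genes held 16.7 ± 0.186% of the summed TPM, with 3 of 18 detected. Hist1h2bg had 4.90 and 2.35 TPM, Hist1h2bc 3.13 and 2.96 and Hist1h2bj 1.62 and 2.11. Hist1h2bn, at 1.31 and 0.81 TPM, was above 1 in replicate 1 only. Hist1h2bc varied least between the libraries of these genes, and it has the most counts of the H2B genes, 63.88 and 78.64. The 14 others ranged from 0 to 0.94 TPM on average.

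H3 genes were the lowest family by mean TPM per gene. By median they were lowest in replicate 1, at 0.50 TPM. In replicate 2 their median of 0.415 TPM was above those of H2A (0.255) and H2B (0.27). H3 genes held 8.84 ± 2.76% of the summed TPM over 12 genes, and none was detected in both libraries. Hist2h3b had 0.77 and 2.50 TPM, Hist1h3d 1.24 and 0.92, Hist1h3e 0.56 and 1.09, and Hist1h3i 1.16 and 0.38. Each of those except Hist1h3d is an uncertain copy, as defined below. Hist2h3c1 had 0.44 and 1.05 TPM, and the other 7 genes 0.12 to 0.645 on average. Per gene, H3 stood at 0.595 and 0.617 TPM. H2B was the nearest family, at 0.971 and 0.633 TPM per gene.

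H4 genes were the highest family, with 36.0 ± 1.10% of the summed TPM and 8 of 13 genes detected. Hist1h4m (chr13:21811746-21812147, plus strand) had the highest level of all 67, 9.96 and 9.06 TPM. Hist1h4h had 4.08 and 2.87 TPM, Hist1h4i 5.08 and 1.83, and Hist1h4c 3.85 and 2.99. Hist1h4b was detected at 2.36 and 1.31 TPM. The level of Hist1h4m exceeded that of every other H4 gene in both libraries. Per gene, H4 stood at 2.81 and 1.94 TPM, above each other family in the same library. The order of the families depends on the scale and, by TPM, on Hist1h4m, without which H2A held 29.2 ± 3.11% and H4 27.8 ± 0.830%, within the spread of the libraries. That gene rests on 42.25 and 45 counts and has an effective length of 197.26 and 173.3 bases in a model of 402. The effective length is the number of positions at which a fragment could start. By expected counts, in place of TPM, H4 held 21.8%, H1 25.1%, H2A 28.1%, H2B 16.2% and H3 8.85%. Over the 67 genes the effective length ran from 101 to 7207 bases, so counts and TPM order them differently.

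A count of 0 in both libraries was found for 5 genes. They were Hist1h2aa, Hist1h2ba and Hist1h1t, which are the testis forms of H2A, H2B and H1, together with Hist1h2ao and Hist1h2bp. A limit of 3 counts allows up to 0.752 and 0.648 TPM for Hist1h2aa, 0.776 and 0.672 for Hist1h2ba, and 0.198 and 0.154 for Hist1h1t. For Hist1h2ao the limit is 0.508 and 0.418 TPM, and for Hist1h2bp 0.411 and 0.332. By FASTQ-derived TPM, 4 of the 5 were also at 0, and Hist1h2ao had 3.83 and 6.01 estimated counts. Hist1h2ao shares 93.5% of its 50-base windows with another gene, most of them with Hist1h2ap. These limits cover counting error only, since no molecular identifiers mark which reads are copies of 1 molecule, and they do not cover how reads were divided between gene copies. The upper credibility bounds, which do, were 1.32 and 1.17 TPM for Hist1h2ao, above the detection level, and 0.727 and 0.600 for Hist1h2bp. For the 3 testis genes they were at or below the limit of 3 counts in each library.

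The genes fall into 4 named clusters, and Hist1 on chromosome 13 holds 54 of them and 79.3 ± 0.478% of their summed TPM. The 10 Hist2 genes on chromosome 3 held 14.6 ± 0.0256%, the 2 Hist3 genes on chromosome 11 held 5.82 ± 0.488%, and Hist4h4 on chromosome 6 held 0.208 ± 0.0353%. Per gene, Hist1 at 1.51 and 1.01 TPM and Hist2 at 1.52 and 1.00 differed by far less than the libraries did. Of the Hist2, Hist3 and Hist4 genes, 5 had a mean of at least 1 TPM: Hist3h2a, Hist2h2aa2, Hist2h2ac, Hist2h3b and Hist2h2aa1. Within Hist1 the genes lie in 4 groups with gaps of over 100 kb. The first, chr13:21715763-21837530, had 18 genes and a mean of 1.31 ± 0.346 TPM per gene. The second, chr13:22035164-22043676, had 5 genes and 1.32 ± 0.653 TPM per gene. The third, chr13:23531050-23764406, had 29 genes and 1.31 ± 0.335 TPM per gene. The fourth, chr13:23933773-23934851, holds only Hist1h2ba and Hist1h2aa, both at 0 counts. Those spreads include the shift of TPM between the libraries. Within replicate 1 the first 3 groups stood at 1.56, 1.78 and 1.55 TPM per gene, and within replicate 2 at 1.07, 0.858 and 1.07. Of these 3, the second group was thus highest in replicate 1 and lowest in replicate 2. High and low genes lay side by side within each of the 3.

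**Figure D2:**
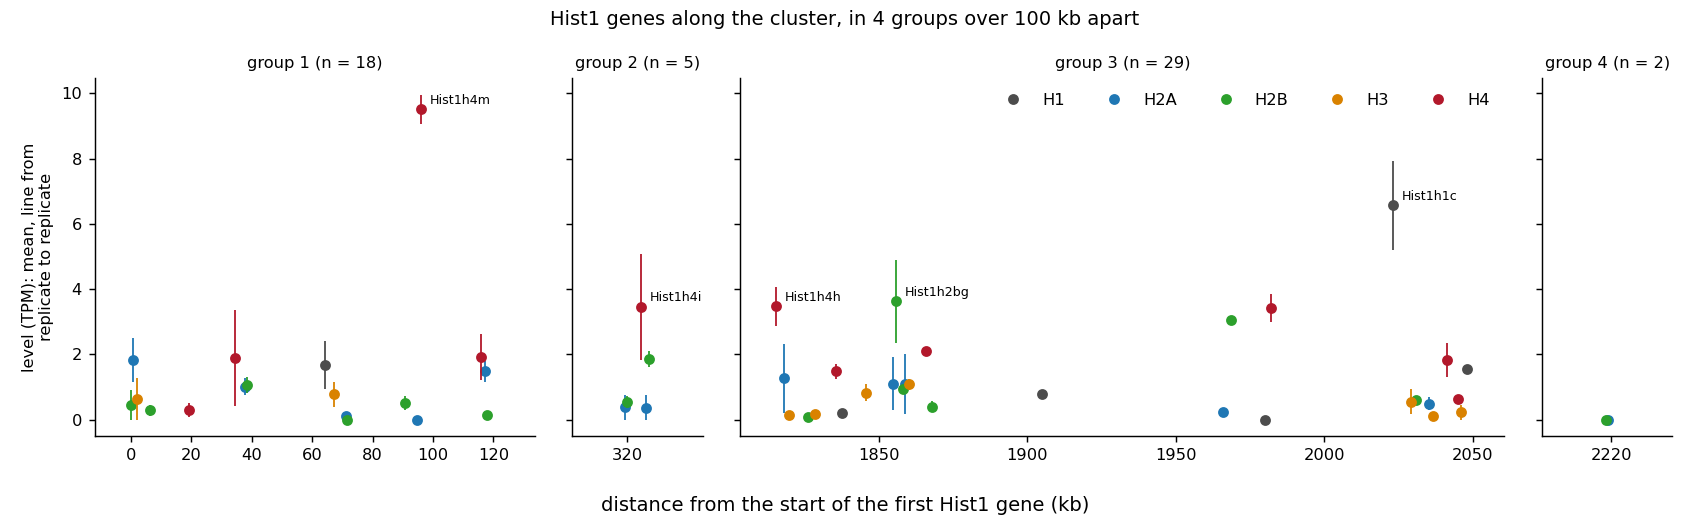
Level in TPM (y axis, linear; points are means, lines run from replicate to replicate) of the 54 Hist1 genes against distance in kb from the start of the first, in 4 panels for the 4 groups, coloured by family. Hist1h4m, the highest, lies between Hist1h2ao at 0 and Hist1h4n at 2.63 and 1.22 TPM, and both genes of the last group are at 0.

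Neighbouring H2A and H2B genes often share the stretch of DNA between their starts. There were 12 such pairs, read outward from starts 175 to 305 bases apart. In 4 pairs the H2B gene was higher in both libraries, in 3 the H2A gene was, and in 5 neither held. Both genes are uncertain copies, as defined below, in Hist1h2ao with Hist1h2bq and Hist1h2ag with Hist1h2bj, where H2B was higher. The same holds for Hist1h2ap with Hist1h2br and Hist1h2ai with Hist1h2bl, where H2A was higher. Counts were few, such as 3.48 and 0 for Hist1h2bl and 0.88 and 0.19 for Hist1h2br. Direction in these pairs thus cannot be told apart from how reads were divided between copies. In the closest pair, Hist1h2ae had 1.91 and 0.28 TPM and Hist1h2bg 4.90 and 2.35. In the pair Hist1h2ac and Hist1h2bc the H2A gene had 0.15 and 0.32 TPM and the H2B gene 3.13 and 2.96. The pair Hist2h2ac and Hist2h2be went the other way, at 4.44 and 1.20 against 0.69 and 0.44 TPM.

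The promoter windows of RefSeq (GRCm38.p6, 250 bases before to 50 after the start) covered 61 of the 67 genes. They were searched on both strands for the octamer ATTTGCAT, known as a site of OCT factors in H2B promoters, for CCAAT, known as a site of NF-Y, and for TATAAA, known as a site of TBP. None of these motifs contains another. CCAAT was in the windows of all 49 covered genes outside H4 and in 3 of 12 H4 genes, against 41.1% of all 27025 windows. TATAAA was in 35 of 61 (57.4%), against 15.7%. The octamer was in 7 of 17 H2A and 7 of 16 H2B genes and in 0 genes of the other families, against 1.97% of all windows. Windows of neighbouring H2A and H2B genes overlap, so 1 site can be counted in both families. Both windows had the octamer for Hist1h2ae and Hist1h2bg, Hist1h2ah and Hist1h2bk, and Hist1h2aa and Hist1h2ba. H2B genes with the octamer letters had a median of 0.40 TPM (7 genes) and those without 0.455 (9 genes), with ranges of 0 to 3.62 and 0 to 1.86 that overlapped. Hist1h2bc and Hist2h2be had no window and are in neither group, at 3.045 and 0.565 TPM on average. The windows of their neighbours Hist1h2ac and Hist2h2ac held the octamer, so the order of the 2 medians may depend on this omission. The stretches between the starts of 2 neighbouring pairs are shown from RefSeq, on the plus strand of GRCm38.p6 with the octamer in capitals, because these are the pairs with the shortest gaps.
Hist1h2ae and Hist1h2bg, chr13:23571221-23571395: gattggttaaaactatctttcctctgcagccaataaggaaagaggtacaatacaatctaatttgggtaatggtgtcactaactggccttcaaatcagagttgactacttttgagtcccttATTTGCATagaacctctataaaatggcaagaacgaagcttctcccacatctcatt
Hist1h2bf and Hist1h2ad, chr13:23574197-23574380: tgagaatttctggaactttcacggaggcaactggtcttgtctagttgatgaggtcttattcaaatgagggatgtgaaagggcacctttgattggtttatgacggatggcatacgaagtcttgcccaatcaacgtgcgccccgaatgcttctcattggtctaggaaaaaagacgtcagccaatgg
The first stretch holds the octamer in the part nearer the start of Hist1h2bg, the H2B gene with the highest mean TPM, although Hist1h2bc was above it in replicate 2. The second holds no exact match, and its genes had 0.82 and 1.06 TPM (Hist1h2bf) and 2.00 and 0.16 TPM (Hist1h2ad). A match of letters is a description and not evidence of binding.

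Most of the genes have 1 short model, so where that model ends decides which reads are assigned to it. Of the 67 genes, 62 had only models of 1 exon and 62 had 1 model, for 75 models in all. The 16 models that ended within 40 bases of the stem-loop, the end of the processed mRNA, held 31.7 ± 4.56% of the models' summed TPM. The 30 that ran on past it, by 42 to 4884 bases, held 45.2 ± 3.90%, and the 29 without the motif 23.1 ± 0.662%. By expected counts the shares were 11.9%, 70.4% and 17.7%, since the longer models have a median length of 1079 bases against 474.5. Models without the motif had a median of 411 bases, and some may stop before it. The polyadenylation signal AATAAA lay in the last 50 bases of 0 of the 16, 10 of the 30 and 6 of the 29, against 31.0% of the 101577 models of other protein-coding genes. Models past the stem-loop that had the signal held 16.9 ± 0.698% of the TPM and those without it 28.3 ± 3.20%.

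By gene, Hist1h4m and Hist2h2aa2 stood first among models ending at the stem-loop, and Hist1h1c and Hist3h2a first among the longer ones, whose models ran 840 and 1643 bases past it. A read that lies before the stem-loop can come from either form, so the shares describe the annotation to which reads were assigned and not the length of the RNA.

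**Figure D3:**
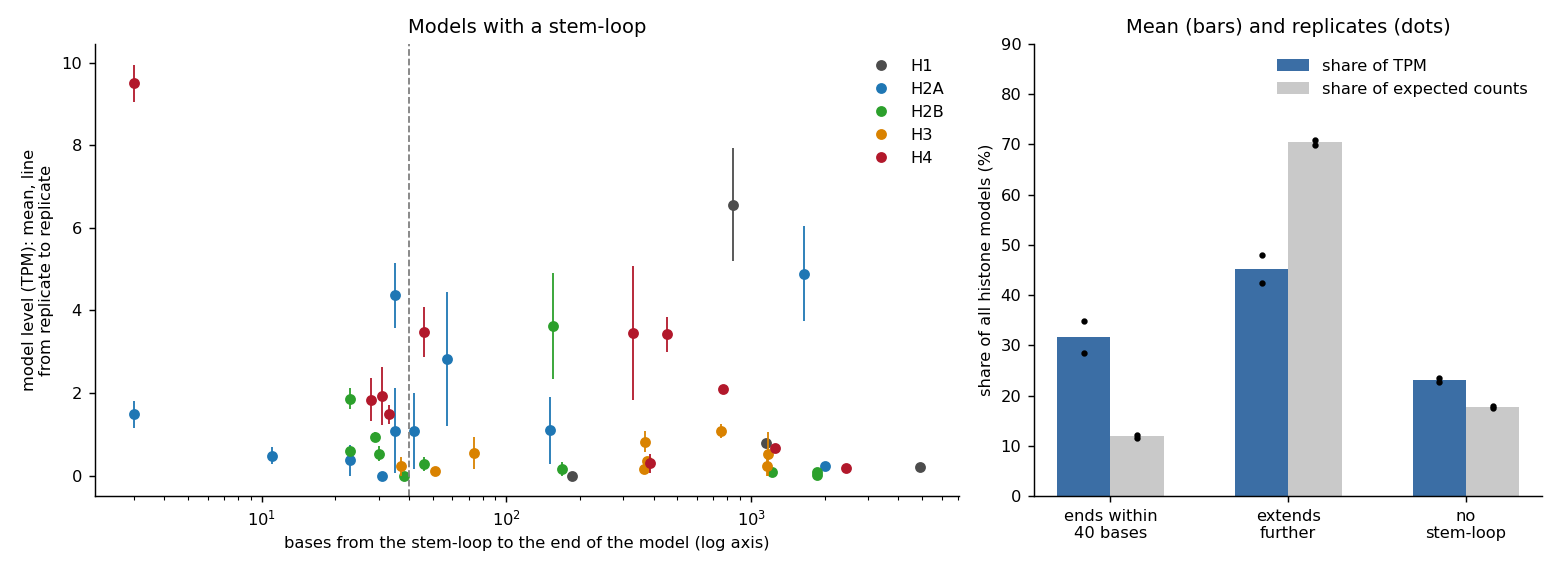
Left, mean level in TPM of each model with a stem-loop (lines run from replicate to replicate) against the bases from the stem-loop to the end of the model (log axis), with a dashed line at 40 bases; right, share of all 75 models' TPM and of their expected counts by class of end, as means (bars) with both replicates (dots). Longer models hold 45.2% of the TPM and 70.4% of the counts.

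Histone genes resemble each other, and some reads fit more than 1 of them. A gene was called an uncertain copy when at least 50% of the 50-base windows of its longest model also occurred in another gene. That held for 32 of 67 genes: 0 of 6 H1, 12 of 18 H2A, 8 of 18 H2B, 8 of 12 H3 and 4 of 13 H4 genes. These held 46.3 ± 2.42% of the summed TPM and 20.7 ± 1.90% of the counts, and 7 of them were detected. Hist1h4m is among them, with 89.8% of its windows also in another gene, most of them in Hist1h4n, which had 2.63 and 1.22 TPM. No window was shared for Hist2h2be, Hist1h1a, Hist1h1b and Hist1h1t. Without the uncertain copies, H4 held 34.4% of the remaining TPM, H1 23.3%, H2A 19.1%, H2B 18.8% and H3 4.45%. An exon of another gene on the opposite strand overlapped 21 genes, of which 15 had only miRNA models there. Those 17 miRNA models, counted over all genes they overlap, held 0.18 and 0 counts. Near the Hist2 genes, the opposite-strand genes Gm20632 and Gm20633 had 65.74 and 59.09, and 67.28 and 72.23 counts. They overlap Hist2h2aa2 and Hist2h2aa1, and the strand setting of the authors' counting is not given in the sources used here.

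The 2 quantifications ordered the genes alike but not at 1 scale. Spearman's rho over the 67 genes between the alignment-based and FASTQ-derived mean TPM was 0.887, and between the replicates 0.684. These are descriptions over genes that share libraries and copies. The FASTQ-derived TPM was 0.466 times the alignment-based for the median of the 18 detected genes, against 0.620 for the median of 8810 detected protein-coding genes. Among genes of at least 1 TPM on average in either table, the factors farthest from 1 were in Hist2h2aa1 (0.198), Hist1h2ap (0.259), Hist1h4b (0.345), Hist1h4m (0.356) and Hist1h2af (0.366). All 5 are uncertain copies, as are 32 of all 67 genes. Hist1h4c, which is not such a copy, was close to them at 0.378. Below 1 TPM on average, factors were as far from 1 in genes that are not such copies, among them Hist1h2ac (0.363). Hist1h4m had 2.83 and 3.95 TPM by the FASTQ-derived tables, where it was still the highest of the named genes on average. Hist1h2af, at 2.32 and 0.21 TPM by alignment, had 0.842 and 0.0841.

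The libraries were compared on counts as well as on TPM. By TPM 43 of 67 genes were lower in replicate 2, 18 higher and 6 equal, the last including the 5 genes at 0 counts in both. Thus 43 of the 62 histone genes with counts were lower. Among other protein-coding genes with a value above 0, 82.8% were lower in replicate 2. On counts scaled by TMM, a normalization that sets most genes equal, 27 genes had a mean count of at least 10. Their median log2 ratio of replicate 2 over replicate 1 was 0.045, with 14 above 0 and 13 below. That of 11314 other protein-coding genes was 0.017. The histone median was negative without the count minimum, at -0.092, so its direction depends on that choice. A ratio beyond 2-fold was found for 7 of the 27 (25.9%), beside 3.41% of protein-coding genes with that count. At mean counts of 10 to 60, which 24 of the 27 genes had, it was 29.2% of histone genes and 11.4% of 2669 other protein-coding genes.

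Genes beyond 2-fold went in both directions. Hist1h2ae was lowest in replicate 2 at a log2 ratio of -2.10, from 20.42 and 3.79 counts. Hist2h2ac followed at -1.44, from 30 and 10 counts, and Hist1h4i at -1.02, from 56.91 and 26. Hist2h3b was highest at 1.84, from 4.68 and 18.5 counts. Hist2h3c1 stood at 1.74, from 15.33 and 47.91, and Hist1h2ac at 1.61, from 7.19 and 20.81. Hist1h3e was the remaining one at 1.29. The 7 genes had mean counts of 11.6 to 41.5, and 3 of them are uncertain copies. In the FASTQ-derived table Hist2h3c1 was listed at 7.33e-08 TPM in replicate 1 and at 0.306 in replicate 2. The 2 genes with a mean of over 100 counts were close to equal, Hist1h1c at -0.12 and Hist3h2a at -0.19. All 4 H3 genes with enough counts were higher in replicate 2 by expected counts under TMM, DESeq2 size factors and library totals, but 2 of the 4 were lower by FASTQ-derived counts. Summed over all 12 H3 genes the counts were 85.52 and 137.59, while the other families each had fewer in replicate 2. The H3 genes Hist2h3c1, Hist2h3b and Hist1h3e, all beyond 2-fold, are uncertain copies. Every 50-base window of Hist2h3c1 also occurs in another gene, foremost Gm20634. That gene overlaps it on the same strand and had 105.23 and 70.33 counts. Whether reads were divided differently between such genes in the 2 libraries was not tested.

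**Figure D4:**
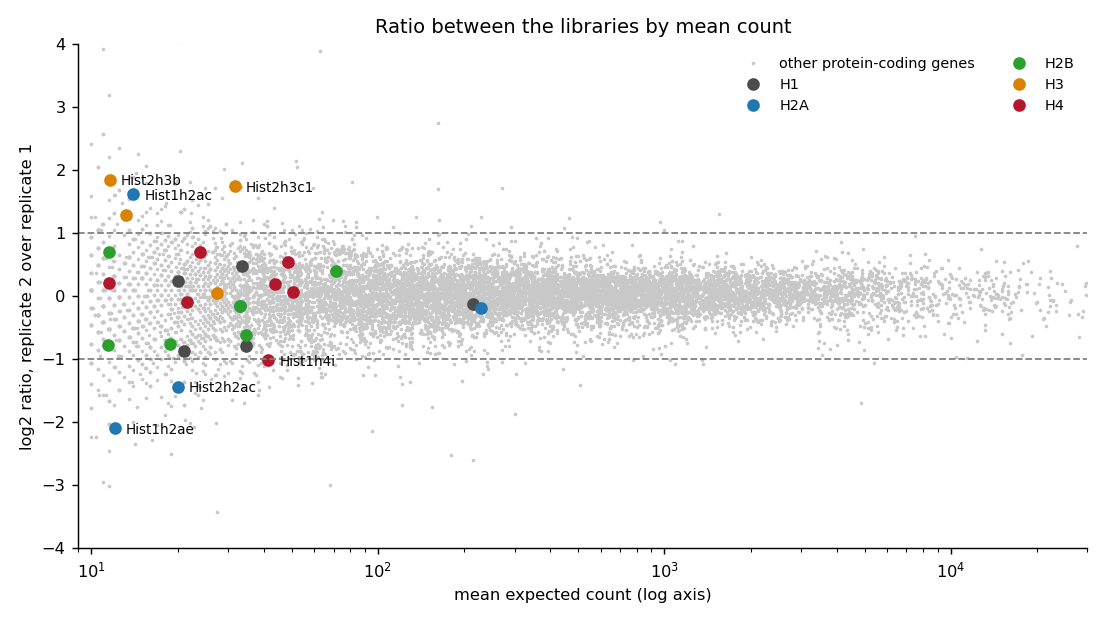
Log2 ratio of replicate 2 over replicate 1 on TMM-scaled counts (y axis) against mean expected count (x axis, log scale) for the 27 histone genes with a mean count of at least 10, coloured by family, over other protein-coding genes (grey); dashed lines mark 2-fold, and 12 grey genes lie beyond the y axis and 37 beyond the x axis. The 7 histone genes beyond 2-fold all have mean counts below 42, and the genes with over 60 counts lie between -0.19 and 0.40.

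The authors' credibility intervals are a measure of the error within a library. They cover read assignment and counting within 1 library, on the TPM scale. They did not overlap between the libraries for 8 of 62 histone genes with counts (12.9%), beside 31.8% of protein-coding genes with counts. All 8 were higher in replicate 1, as TPM were in general: Hist2h2ac, Hist3h2a, Hist1h1b, Hist1h4i, Hist1h1d, Hist1h2ae, Hist1h2ad and Hist1h1c. For Hist2h2ac the intervals ran from 2.85 to 5.88 TPM and from 0.590 to 2.06. For Hist1h1c they ran from 6.61 to 8.56 and from 4.35 to 5.74. The median histone gene had 6.9 and 6.22 counts, and with so few counts the intervals are wide.

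Each of 5 lists of related genes had a higher median than the clustered genes, without a test of that difference. The lists hold chosen genes, while the 67 are every gene that matched a naming rule, so the sets are not alike. Beside the detected shares of all 5 lists stands the 40.0% of all protein-coding genes. The variant histones, whose genes lie outside these clusters and are mostly read throughout the cell cycle, were detected for 9 of 11, with a median of 3.59 ± 1.50 TPM and a sum of 341 ± 116, against the sum of 86.1 for the 67 clustered genes. H3f3b, a gene of the replacement histone H3.3, had 254.06 and 158.45 TPM, and the 12 clustered H3 genes together 7.14 and 7.40. H2afy, of macroH2A1, had 64.08 and 39.13 TPM, and Cenpa, of the centromeric H3, 55.84 and 33.81. Both libraries placed each of these above the highest clustered gene. H1fx and H2afy2 were not detected, at 0.08 ± 0.0141 and 0.385 ± 0.219 TPM. H2afx, of the DNA damage variant H2A.X, is 1 of the 34 other genes with the stem-loop motif and had 1.03 TPM in each library. By FASTQ-derived TPM 7 of the 11 were detected, without H2afx and H2afv.

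Genes that process, transcribe or degrade histone mRNA were detected for 15 of 21, with a median of 2.91 ± 0.382 TPM. Srrt, which links the cap-binding complex to RNA processing, led at 40.12 and 39.65 TPM. Sympk, a scaffold of the cleavage complex, had 13.38 and 8.92, and Eri1, the exonuclease that trims histone mRNA ends, 11.10 and 8.97. Slbp had 6.41 and 4.77 TPM. Not detected were Lsm11 (0.17 in each library) and Zfp473 (0.47 and 0.19), both of the U7 machinery, Npat (1.30 and 0.72), the activator of histone transcription, Snrpg, Snrpf and Lsm1. Their means ran from 0.17 to 1.08 TPM. Histone chaperones were detected for 18 of 20, with a median of 9.07 ± 2.84 TPM, led by Atrx at 93.21 and 72.17 TPM, Npm1 at 32.08 and 32.73, and Ubn1 at 33.5 and 23.69. The 2 not detected, Asf1b (0.24 and 0.92 TPM) and Chaf1a (1.11 and 0.56), act in chromatin assembly, Chaf1a as the large subunit of CAF-1. Its partner Chaf1b had 10.97 and 5.68 TPM and Hira, of the H3.3 pathway, 6.65 and 5.05.

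Replication genes were detected for 10 of 23, a share of the same order as the 40.0% of all protein-coding genes, with a median of 1.27 ± 0.537 TPM. Pcna, the sliding clamp of DNA polymerase, had 30.88 and 15.73 TPM, Tk1, a thymidine kinase, 23.95 and 10.65, and Cdk2 7.45 and 4.78. The 13 not detected included Gins1, Gins2, Ccne1, Ccne2, Tyms, Pole, Mcm4, Mcm5, Mcm7, Cdc6, Rrm2 and Cdc45, which had means of 0.14 to 1.32 TPM. By FASTQ-derived TPM 12 of the 23 were detected: Tyms (3.40 and 2.79 TPM), Pole (1.46 and 1.55) and Ccne1 (1.14 and 1.04) passed, and Mcm2 (0.848 and 0.835) did not. Of 9 mitosis genes 3 were detected, Mki67 at 61.03 and 45.71 TPM, Top2a at 4.55 and 4.25 and Ccna2 at 1.49 and 1.03. The remaining 6, Bub1, Plk1, Ccnb2, Cdk1, Aurkb and Ccnb1, had means of 0.38 to 1.52 TPM. By FASTQ-derived TPM Cdk1 passed, at 3.78 and 2.51, and Ccna2 did not, at 0.798 and 0.600. In bulk RNA, the share of cells in S phase and the amount of histone RNA per cell cannot be told apart.

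**Figure D5:**
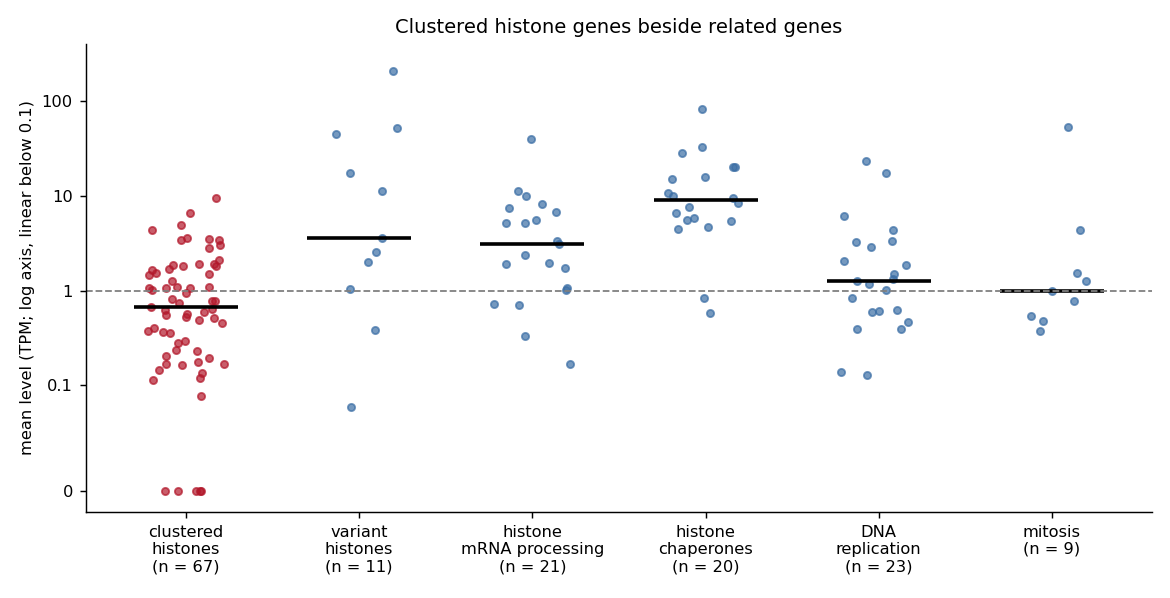
Mean level in TPM (y axis, log scale above 0.1 and linear below it) of each clustered histone gene (red) and of each gene of 5 related lists (blue), with the median of the gene means as a black bar and 1 TPM as a dashed line; points are spread sideways at random. Each of the 5 lists has at least 1 gene above 10 TPM, and no clustered histone gene is above it.

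The cells carried the markers of their labelled type. Each of the 10 macrophage markers passed 1 TPM in both libraries, and their median was 120 ± 37.9 TPM, with Lyz2 the highest at 1542 TPM on average. The marker sums of B cells (0.13 and 0.12 TPM over 4 genes), erythroid cells (0.04 and 0.16 over 4) and fibroblasts (0.06 and 0.14 over 3) were near 0, and neutrophil markers summed to 2.95 and 0.96 TPM over 5. Of 5 T cell markers only Cd4 was detected, at 22.16 and 16.14 TPM, with Cd3e and Cd3g at 0 counts in both libraries and Cd3d at 0.07 and 0.10 TPM. By FASTQ-derived TPM Cd3d passed as well, at 2.38 and 4.28. The part of T cell RNA in the histone levels was not tested.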

How the data were processed

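The authors deposited, for each library, gene and transcript tables made from an alignment, and a transcript table made from the FASTQ files. Per the file headers the first give expected counts, TPM, a posterior mean TPM and credibility bounds on the TPM scale, and the second gives estimated counts and TPM. The build was mm10 with GENCODE M21, per the labels. The aligner, quantifier and strand setting: not given in the sources used here. Library totals were 19630046 and 18434601 expected counts, features outside the annotation included. Fragments, as model length less effective length of Hist1h1d, averaged 206 and 230 bases. FASTQ-derived values were summed per gene.

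The 67 genes were taken by gene type and name. The genes and lists were chosen with earlier results of these data known. Named genes were the 4 highest of each family, the Hist2 to Hist4 genes of at least 1 TPM on average, the 3 highest and 3 lowest ratios, the 5 largest factors between tables among genes of at least 1 TPM in either, and the 3 highest and the undetected of each list, except 1 replication gene that is not reported here. Other genes named were chosen after their values were seen. For ratios, expected counts were rounded to whole numbers, genes with a mean count of at least 10 kept, and log2 ratios of CPM taken with TMM and a prior count of 0.5 (edgeR 4.0.16, R 4.3.3; DESeq2 1.42.0 size factors as an alternative). The ratio, stem-loop and window steps were tested on simulated data. Values are means ± SD over 2 libraries. The labels do not say whether the replicates came from separate animals, so the spread may be partly technical.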

Additional observations from a re-analysis of the deposited data

Results flagged for a closer look

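Of the 3 histone-named genes that the annotation calls pseudogenes, which are outside the 67, Hist3h2bb-ps had 4 expected counts in replicate 1, above the limit of 3 that a count of 0 allows, and 0 in replicate 2. Its level was 0.72 TPM in replicate 1. Hist1h2aj and Hist1h2al had 0 counts in both libraries.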

How the results depend on the processing

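Having only 2 libraries of 1 group, and few counts per gene, limits these values. No paired analysis was possible because there was 1 group. The number of genes detected, 18, became 11 by FASTQ-derived TPM, 48 at 0.1 TPM, 2 at 5 TPM and 40 with TPM rescaled over protein-coding genes, and 23 to 28 on leaving out a replicate. The summed level of 86.1 TPM became 44.6 by FASTQ-derived TPM and 396 when rescaled. By posterior mean TPM, H1 held 11.5%, H2B 18.6%, H4 34.4% and the Hist1 cluster 79.9% of the TPM, and by FASTQ-derived TPM H1 held 10.9% and H2B 19.6%. By expected counts H1 held 25.1%, H2B 16.2%, H4 21.8% and the Hist1 cluster 67.8%. Without uncertain copies H1 held 23.3%, H2A 19.1%, H2B 18.8%, H3 4.45% and H4 34.4%. The median log2 ratio of 0.045 was 0.0490 with DESeq2 size factors and 0.0307 with library totals. It turned to -0.0918 without a count minimum, -0.18 at a mean count of 100 (2 genes), -0.0866 by FASTQ-derived counts and -0.22 for TPM + 1, and the cause was not tested. The share in models that end at the stem-loop, 31.7%, was 26.7% by FASTQ-derived TPM, 11.9% by counts, 13.3% within 10 bases and 40.9% within 100. Uncertain copies held 38.0% of the TPM with 100-base and 62.2% with 25-base windows, against 46.3%. By FASTQ-derived TPM the medians of variant histones, processing genes and chaperones were 1.74, 1.65 and 5.47 TPM. All 27 named histone genes were lower by FASTQ-derived TPM, and 12 were higher by posterior mean TPM.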
